A study of Mus musculus with 23 samples.

Results

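The genes described here license origins of DNA replication, and comprise *Cdt1* and *Cdc6*, the loading factors, *Orc1*, a subunit of the origin recognition complex, *Gmnn*, which encodes the CDT1 inhibitor geminin, and *Mcm2*, *Mcm3*, *Mcm4*, *Mcm5*, *Mcm6* and *Mcm7*, the subunits of the replicative helicase. They were chosen by symbol, through the Ensembl identifiers of the count tables and a GRCm39 annotation, and make up 10 of 56941 genes listed. Of the 10 genes, 9 passed the filter on low counts together with 14482 genes in all, and *Orc1* did not.

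Licensing takes place before S phase, when the origin recognition complex, CDC6 and CDT1 place the MCM helicase on chromatin as a double hexamer. CDT1 is then kept from acting again in the same cycle by geminin and by destruction through a cullin 4 ubiquitin ligase, whose substrate receptor is encoded by *Dtl* and which recognises CDT1 bound to PCNA on chromatin. Cullin ligases work when NEDD8 is attached to the cullin, which is why transcripts of the CDT1 pathway are of interest in cells without *Nedd8*. Neurons have left the cell cycle, so transcripts of these genes in a hippocampal culture can come from dividing glia and progenitors as well as from neurons.

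RNA was sequenced from primary hippocampal cultures of newborn (P0) mice homozygous for a conditional *Nedd8* allele (Nedd8cKO), in which LoxP sites flank internal exons. Both groups carry this allele and received lentivirus on day 1 in vitro, encoding red fluorescent protein alone (RFP) or CRE recombinase tagged with RFP (CRE), in each case under the Synapsin1 promoter, which is active in neurons. Labels give day 12 in vitro for the RNA, while Methods give a later day. The 23 libraries, 12 CRE and 11 RFP, are named here by group, culture number and library number (CRE 1-1), and the culture number is read as 1 of 3 animals or biological replicates. Libraries of 1 culture number then share a replicate, so that p-values and confidence intervals over libraries rest on a spread that is technical in part. The p-values may be too small and the intervals too narrow. The test on counts summed per culture is given beside them where it changes the call of a licensing gene. For the related lists of the main fit it is given as the number of genes called, where that number changed. For the markers it is not given.

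The comparison rests on 21 libraries, 10 CRE and 11 RFP, without CRE 1-3 and CRE 3-3, which the study's Methods name as removed. Total counts assigned to genes ran from 8923280 to 13345552 in the 10 CRE and from 7635735 to 17112815 in the 11 RFP libraries. The removed libraries held 7430401 and 1546796 counts, with 0.261% and 1.83% of counts from the mitochondrial genome, and RFP 2-4 held 3.43%, against 6.997% to 11.1% in the other 20 libraries. *Rn18s-rs5*, a copy of 18S ribosomal RNA, took 24.2% of the counts in RFP 3-2. Levels are CPM, counts scaled to a common library total with TMM scaling, and differences are log2 fold changes of CRE minus RFP fitted with edgeR, whose quasi-likelihood p-values were adjusted by Benjamini and Hochberg's method over the 14482 genes tested and called under 0.05.

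*Nedd8*, the targeted gene, was at 5.90 to 17.9 CPM (median 11.6) in CRE and at 43.9 to 75.8 CPM (median 61.2) in RFP libraries. No CRE library reached the lowest RFP library. The log2 fold change was -2.41 (SE 0.16, adjusted p = 1.8e-12).

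Of the 9 licensing genes tested, 4 were called, beside 37.9% of all genes tested. *Mcm2*, *Mcm4* and *Mcm5* fell, beside 17.8% of all genes called lower. *Gmnn* was past the threshold upward, beside 20.2% called higher, but it passed the filter on low counts through its CRE libraries alone and was not called without that filter. The number called was thus near the share of all genes, and the account below concerns single genes and not the group. With counts summed per culture, 3 sums against 3, only *Mcm2* of the 10 genes was called, and with library totals in place of TMM scaling *Gmnn* and *Mcm2* were. That scaling moved the median of all genes to 0.13, against 0.020 with TMM, and the share of higher genes among the calls to 68.3%, against 53.2%. The median over the 9 licensing genes was -0.30.

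**Figure D1:**
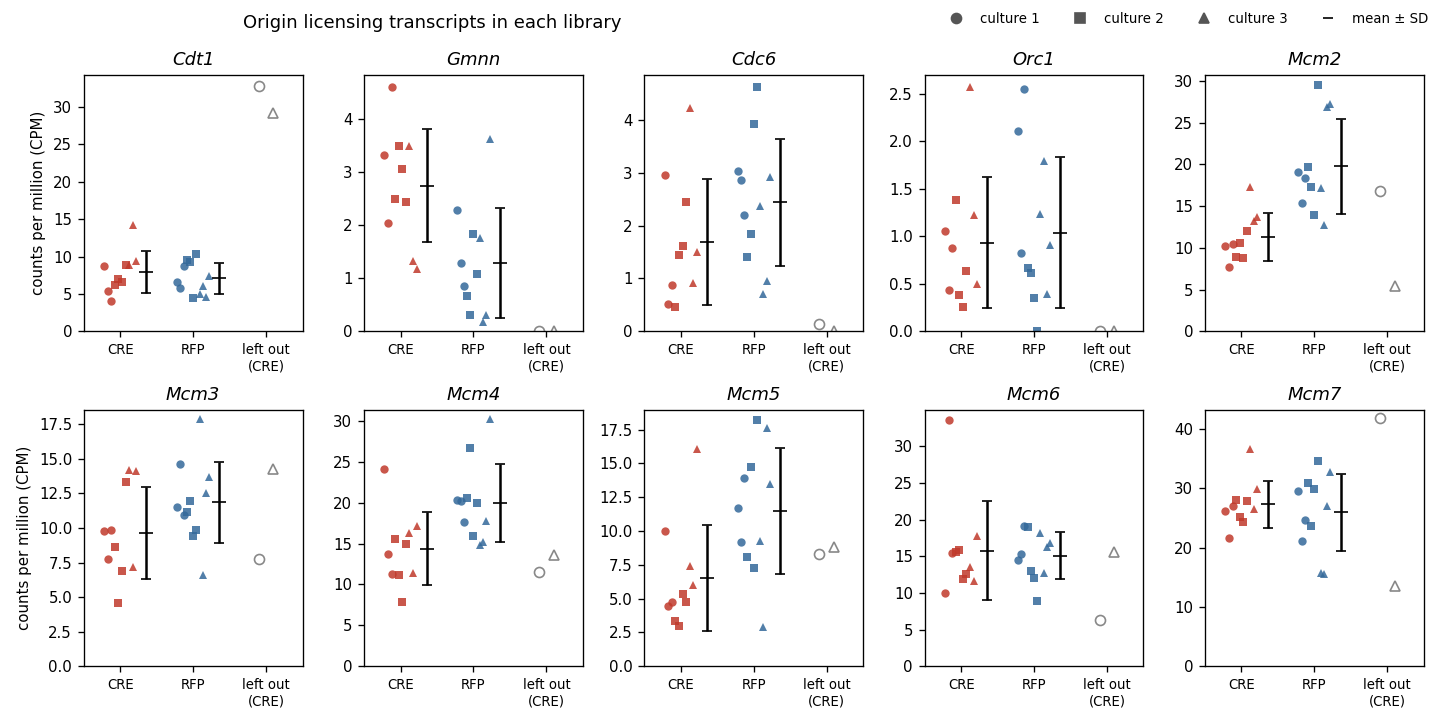
Level of each licensing transcript (vertical axis, CPM from 0) in each of the 10 CRE and 11 RFP libraries, with mean and SD as bars, marker shapes for the 3 cultures, and the libraries CRE 1-3 and CRE 3-3 as open markers. All 10 CRE values of *Mcm2* lie below the RFP median of 18.4, all 10 of *Gmnn* lie above the RFP median of 1.09, and the open markers of *Cdt1* stand at 32.9 and 29.2.

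Among the helicase subunits, the difference was clearest for *Mcm2*, whose amino-terminal tail also binds histones. It was at 7.73 to 17.3 CPM (median 10.5) in CRE and at 12.7 to 29.5 CPM (median 18.4) in RFP libraries. All 10 CRE libraries were below the RFP median and 7 were below every RFP library. *Mcm2* was 1.75-fold lower in CRE, a log2 fold change of -0.81 (SE 0.17, 95% confidence interval -1.16 to -0.46, adjusted p = 0.00035), and it was called under all 37 alternatives, with adjusted p between 1.2e-05 and 0.025.

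*Mcm5*, which closes the gate of the ring with *Mcm2*, was at 2.96 to 16.0 CPM (median 5.07) in CRE and at 2.87 to 18.2 CPM (median 11.7) in RFP libraries. The ranges overlapped over nearly their whole length, but 9 of 10 CRE libraries were below the RFP median. The exception was CRE 3-4 with 16.0 CPM, and the lowest RFP value was that of RFP 3-2. Its log2 fold change was -0.82 (SE 0.29, interval -1.41 to -0.24, adjusted p = 0.024). The call was lost without culture 1 (adjusted p = 0.12) and without culture 2 (adjusted p = 0.36, log2 fold change -0.47), and with counts summed per culture (adjusted p = 0.060).

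*Mcm4*, a subunit of the *Mcm4*, *Mcm6* and *Mcm7* core and a target of the firing kinase, was at 7.83 to 24.1 CPM (median 14.4) in CRE and at 14.8 to 30.3 CPM (median 19.9) in RFP libraries. In 5 CRE libraries it was below every RFP library, and only CRE 1-1 with 24.1 CPM lay above the RFP median. The log2 fold change was -0.47 (SE 0.17, interval -0.82 to -0.13, adjusted p = 0.027). Without CRE 2-3 its adjusted p was 0.051, without RFP 2-2 it was 0.052, without culture 2 it was 0.31, and with counts summed per culture it was 0.056.

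The remaining subunits gave no call. *Mcm3* was at 4.55 to 14.2 CPM (median 9.17) in CRE and at 6.63 to 17.9 CPM (median 11.6) in RFP libraries, with a log2 fold change of -0.30 (interval -0.70 to 0.10, adjusted p = 0.23). *Mcm6* was at 9.98 to 33.6 CPM (median 14.4) in CRE and at 8.88 to 19.1 CPM (median 15.3) in RFP libraries, with a log2 fold change of 0.068 (interval -0.31 to 0.44, adjusted p = 0.81). For both genes the groups overlapped, and a single library, CRE 1-2 with 33.6 CPM, gave the upper end of *Mcm6*, whose log2 fold change without it was -0.13.

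*Mcm7* was at 21.6 to 36.5 CPM (median 26.8) in CRE and at 15.6 to 34.6 CPM (median 27.0) in RFP libraries. The medians were alike and the CRE range lay almost inside the RFP range. Its log2 fold change was 0.072 (interval -0.21 to 0.35, adjusted p = 0.72). A change of more than 1.28-fold in either direction lies outside this interval over libraries, but the log2 fold changes within cultures 1, 2 and 3 were -0.010, -0.17 and 0.44. Exons of *Mcm7* share 344 bases with *Cops6* and 348 bases with *Ap4m1* on the opposite strand, and since the strand setting of the counting is not given in the sources used here, reads there cannot be assigned with certainty.

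**Figure D2:**
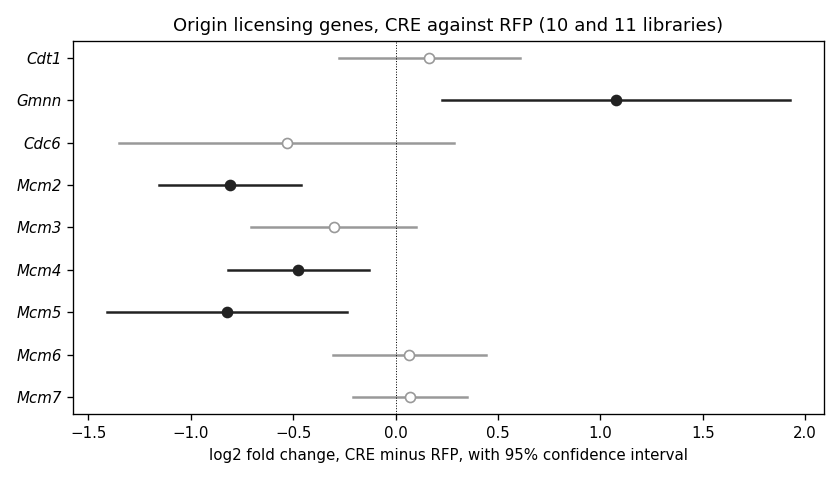
Log2 fold change of CRE minus RFP (horizontal axis) with its 95% confidence interval for the 9 licensing genes tested, filled and dark where the adjusted p was under 0.05. Intervals of *Mcm2*, *Mcm4* and *Mcm5* lie below 0, that of *Gmnn* lies above 0, and those of the other 5 genes include 0.

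The complex holds each subunit once per ring, and differences between subunits in fold change were not tested. Per kb of annotated exon, the summed level of *Mcm2* to *Mcm7* had a median of 14.1 CPM per kb (10.995 to 18.1) in CRE and 17.7 CPM per kb (11.05 to 22.2) in RFP libraries. Of that sum, *Mcm7* made up a median of 36.2% (24.9% to 39.4%) in CRE and 25.4% (18.3% to 35.8%) in RFP libraries. *Mcm2* made up 10.0% (6.31% to 13.1%) in CRE and 13.6% (11.9% to 19.1%) in RFP libraries. The ranges of both shares overlapped between groups, and shares of 1 sum depend on each other.

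Ordered by mean level per kb in RFP libraries, *Mcm7* came first with 4.62 CPM per kb, followed by *Mcm4* with 3.73, *Mcm6* with 2.77, *Mcm2* with 2.49, *Cdt1* with 2.19, *Mcm3* with 1.89 and *Mcm5* with 1.68 CPM per kb. *Gmnn* at 0.468, *Cdc6* at 0.444 and *Orc1* at 0.181 CPM per kb stood well below. Between *Mcm7* and *Mcm4*, from *Mcm6* to *Mcm5*, and between *Gmnn* and *Cdc6*, neighbours differed by less than the SD of either gene. The order depends on the length used, since over the longest annotated transcript *Mcm2* came second with 4.79 CPM per kb, after *Mcm7* with 8.76.

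Promoter sequences are shown because the licensing genes are known as targets of E2F factors, and some of them were called here and others not. RefSeq promoters, 250 bases before to 50 after a start, were found for 8 of the 10 genes, *Gmnn* and *Mcm4* being without an entry, and each was placed in GRCm39 by its single exact match. The E2F motif was searched as TTTCCCGC, TTTCGCGC, TTTGCCGC or TTTGGCGC on both strands, where matches may overlap. It was in a promoter of 7 of the 8 genes, and in 2.26% of all 32851 promoters of the same length. The first number counts genes and the share counts single promoters. *Mcm7* had 2 promoters, of which 1 held no match. In the 200 bases before the start printed here, 5′ to 3′ on the strand of the gene, capitals mark these letters.
*Mcm2*, chr6:88875763-88875962, minus strand: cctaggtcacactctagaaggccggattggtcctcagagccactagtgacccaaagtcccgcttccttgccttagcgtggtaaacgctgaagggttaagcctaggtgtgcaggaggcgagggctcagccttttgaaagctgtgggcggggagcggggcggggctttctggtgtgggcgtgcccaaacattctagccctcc
*Mcm5*, chr8:75835937-75836136, plus strand: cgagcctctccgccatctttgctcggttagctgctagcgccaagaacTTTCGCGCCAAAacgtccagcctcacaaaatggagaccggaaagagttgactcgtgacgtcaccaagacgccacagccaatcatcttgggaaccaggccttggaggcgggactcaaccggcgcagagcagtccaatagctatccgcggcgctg
*Mcm6*, chr1:128287443-128287642, minus strand: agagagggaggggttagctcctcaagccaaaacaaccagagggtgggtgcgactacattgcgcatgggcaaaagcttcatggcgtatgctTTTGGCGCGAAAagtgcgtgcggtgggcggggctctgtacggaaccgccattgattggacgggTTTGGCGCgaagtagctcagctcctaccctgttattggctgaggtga
*Cdt1*, chr8:123294554-123294753, plus strand: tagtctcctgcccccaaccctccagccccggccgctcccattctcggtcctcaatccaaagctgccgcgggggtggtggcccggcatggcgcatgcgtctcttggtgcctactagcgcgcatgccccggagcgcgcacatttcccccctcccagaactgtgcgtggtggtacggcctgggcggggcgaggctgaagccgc
*Mcm2*, the subunit with the smallest p, held no match in its window. *Mcm5*, which fell, and *Mcm6*, which was not called, both held a pair of overlapping matches on opposite strands, first bases 153 and 149 before the start in *Mcm5* and 110 and 106 before it in *Mcm6*, and *Mcm6* held another 47 bases before the start. In *Cdt1* the match began at base 33 after the start, outside the printed stretch. A match is a description of letters and no evidence of binding, and with the 150 bases before the start alone, 4 of the 8 genes held one (*Cdc6*, *Orc1*, *Mcm5* and *Mcm6*), beside 1.24% of all promoters.

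*Cdt1*, the loading factor that cullin 4 ligases destroy, was at 4.04 to 14.2 CPM (median 7.87) in CRE and at 4.45 to 10.3 CPM (median 6.60) in RFP libraries. The groups overlapped, with 1 CRE library below and 1 above every RFP library. The log2 fold change was 0.16 (SE 0.22, interval -0.28 to 0.61, adjusted p = 0.59), so that the mRNA gave no call. An increase of more than 1.52-fold lies outside this interval over libraries, but the log2 fold changes within cultures 1, 2 and 3 were -0.21, -0.22 and 0.90. CDT1 protein is not measured by these libraries.

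*Cdt1* behaved differently in the libraries outside the comparison. CRE 1-3 held 242 counts of *Cdt1*, a level of 32.9 CPM, and CRE 3-3 held 43 counts, a level of 29.2 CPM. Both lay above all 21 other libraries. With CRE 1-3 and CRE 3-3 included, *Cdt1* had a log2 fold change of 0.69 (adjusted p = 0.097), and with the 21 libraries of the study's supplementary count table, which keep CRE 1-3 and leave out RFP 3-2, it was 0.48 (adjusted p = 0.24). CRE 1-3 and CRE 3-3 had a Spearman rho of 0.72 and 0.54 between their deviation from the other libraries and the GC content of genes. RFP 2-4, which stays in the comparison, had 0.46, and the other 20 libraries had -0.20 to 0.19. In RFP 2-4 *Cdt1* was at 10.3 CPM, the highest RFP level. Exons of *Cdt1* are 57.8% GC. The part of GC content in the *Cdt1* level of these libraries was not tested.

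*Gmnn*, which encodes the inhibitor that binds CDT1, was at 1.17 to 4.60 CPM (median 2.78) in CRE and at 0.179 to 3.62 CPM (median 1.09) in RFP libraries. All 10 CRE libraries were above the RFP median, though the ranges overlapped and only CRE 1-4 was above every RFP library. These levels rest on 13 to 58 counts per CRE and 1 to 36 counts per RFP library. Its log2 fold change was 1.07 (SE 0.42, interval 0.23 to 1.92, adjusted p = 0.041). It passed the filter with 10 of 10 CRE but 6 of 11 RFP libraries over the cutoff of 0.902 CPM, and without the filter the adjusted p was 0.070.

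The *Gmnn* call also depended on single libraries. When 1 library was left out at a time, its adjusted p ran from 0.013 to 0.084 and was under 0.05 in 7 of 21 fits. The call was lost without any 1 of CRE 1-1, 1-4, 2-1, 2-2, 2-3, 2-4 or 3-1, or of RFP 1-2, 1-3, 2-1, 2-2, 2-4, 3-2 or 3-3. *Gmnn* had 0 counts in CRE 1-3 and in CRE 3-3, which allows up to 0.407 and 2.04 CPM, and with all 23 libraries its adjusted p was 0.21, with the libraries of the study's own table also 0.21. With counts summed per culture it was 0.095. Of its exon bases, 573 lie opposite the non-coding gene *Gm56584*.

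The ratio of *Cdt1* to *Gmnn*, each per kb of exon, had a median of 2.21 (0.749 to 9.11) in CRE and 8.09 (1.75 to 29.0) in RFP libraries. Most of the CRE libraries thus lay below the RFP median of this ratio, but the ranges overlapped. The ratio follows the low counts of *Gmnn*, 1 to 36 per RFP library, and was not tested. *Cdc6*, the ATPase that bridges origin and helicase, was at 0.462 to 4.22 CPM (median 1.47) in CRE and at 0.716 to 4.62 CPM (median 2.37) in RFP libraries, with a log2 fold change of -0.53 (interval -1.35 to 0.29, adjusted p = 0.32). *Orc1*, the subunit that joins the origin recognition complex in each cycle, was at 0.255 to 2.57 CPM (median 0.752) in CRE and at 0 to 2.55 CPM (median 0.827) in RFP libraries. The groups of both genes overlapped, and *Orc1* was over the cutoff in 4 CRE and 5 RFP libraries and was not tested. Exons of *Orc1* share 695 bases with the non-coding gene *Gm12743* on the opposite strand, which held 205 counts over all libraries against 233 for *Orc1*.

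Within cultures, the log2 fold changes of *Cdt1*, *Cdc6*, *Mcm6* and *Mcm7* differed in sign. That of *Cdt1* was -0.21 in culture 1, -0.22 in culture 2 and 0.90 in culture 3, where the 3 CRE libraries (8.91 to 14.2 CPM) lay above the 4 RFP libraries (4.65 to 7.44 CPM). In culture 1 the CRE libraries held 4.04 to 8.77 and the RFP libraries 5.79 to 8.78 CPM of *Cdt1*, and in culture 2 they held 6.19 to 8.94 and 4.45 to 10.3 CPM. Without culture 3 the *Cdt1* log2 fold change was -0.27 (adjusted p = 0.44). The difference between cultures itself was tested as an interaction in edgeR, and for *Cdt1* its p was 0.0505 before and 0.50 after adjustment. None of the 9 licensing genes was called for this interaction or had an unadjusted p under 0.05, beside 0.311% of all genes tested called.

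**Figure D3:**
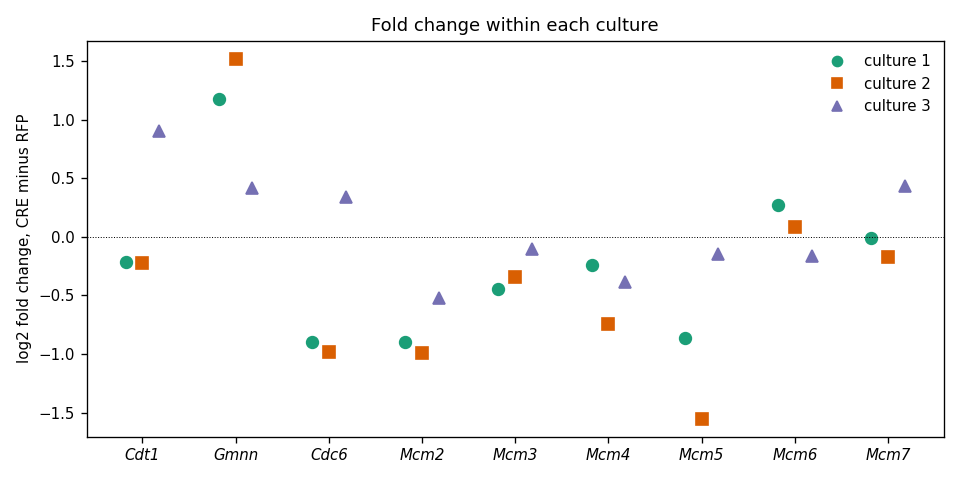
Log2 fold change of CRE minus RFP (vertical axis) of the 9 tested licensing genes within each of the 3 cultures (marker shape and colour), fitted with 3 or 4 libraries per group and culture. *Mcm2* is below 0 in every culture (-0.89, -0.99 and -0.52), *Gmnn* is above 0 in every culture (1.18, 1.52 and 0.42), and *Cdt1* and *Cdc6* are below 0 in cultures 1 and 2 and above 0 in culture 3.

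*Mcm5* had log2 fold changes of -0.86, -1.55 and -0.15 in cultures 1, 2 and 3, and *Mcm4* of -0.24, -0.75 and -0.39. In each culture both were below 0. *Mcm5* in culture 3 ranged from 6.03 to 16.0 CPM in CRE and from 2.87 to 17.6 CPM in RFP libraries, so that the groups could not be separated there.

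Proteins that remove CDT1 were described by 11 genes, all of them tested, of which 4 fell and 1 rose. Over all genes tested, 37.9% were called, 17.8% lower and 20.2% higher. The counts for this list and for the lists and markers below are to be read beside these shares. No list was tested as a whole. *Dtl*, the receptor of the cullin 4 ligase for CDT1, was at 2.05 to 5.97 CPM (median 4.69) in CRE and at 5.82 to 10.1 CPM (median 7.02) in RFP libraries. In 9 of 10 CRE libraries it was below every RFP library, with a log2 fold change of -0.84 (SE 0.21, adjusted p = 0.0018). *Rbx1*, the RING subunit shared by cullin ligases, had a log2 fold change of -0.42 (SE 0.084, adjusted p = 0.00018) and was also below every RFP library in 9 of 10 libraries. *Ddb1*, the adaptor of cullin 4, rose with a log2 fold change of 0.31 (SE 0.069, adjusted p = 0.00073). *Fbxo31*, an F-box receptor reported for CDT1, had one of -0.54 (SE 0.093, adjusted p = 2.7e-05), while in CRE 1-3 and CRE 3-3 it was at 190 and 316 CPM against at most 159 CPM in the RFP libraries.

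The cullins themselves gave no call. *Cul4a* had a log2 fold change of -0.20 (interval -0.39 to -0.012, adjusted p = 0.087), *Cul4b* of -0.041 (interval -0.34 to 0.26, adjusted p = 0.86) and *Cul1* of 0.038 (interval -0.15 to 0.23, adjusted p = 0.79). *Skp2*, another receptor for CDT1, had one of 0.051 (interval -0.34 to 0.44, adjusted p = 0.86). *Pcna*, the sliding clamp on which CDT1 is recognised, is the remaining gene that fell, with a log2 fold change of -0.48 (SE 0.13, adjusted p = 0.0042), and was named after its values were seen. With all 23 libraries, 2 of the 11 genes fell and 0 rose by the same test. Counts summed per culture gave 4 that fell and 0 that rose.

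Other substrates of the same ligase went in different directions. *Cdkn1a*, which encodes the CDK inhibitor p21, was at 81.3 to 153 CPM (median 117) in CRE and at 31.8 to 57.0 CPM (median 41.1) in RFP libraries. All 10 CRE libraries lay above every RFP library, with a log2 fold change of 1.48 (SE 0.12, adjusted p = 8.1e-11). *Tdg*, a DNA glycosylase, had one of -0.51 (SE 0.13, adjusted p = 0.0033), and *Kmt5a*, a histone methyltransferase, of -0.012 (interval -0.21 to 0.18, adjusted p = 0.94).

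Of the 3 genes for the control of geminin destruction, 2 fell and 0 rose. Counts summed per culture gave 1 that fell and 0 that rose. *Cdc20*, an activator of the anaphase promoting complex, had a log2 fold change of -1.34 (SE 0.27, adjusted p = 0.00023), and *Fbxo5*, its inhibitor EMI1, one of -0.99 (SE 0.36, adjusted p = 0.028). *Fzr1*, the activator in G1 and in neurons, had one of -0.19 (interval -0.39 to 0.0012, adjusted p = 0.11).

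Among 8 other loading genes, 2 rose and 0 fell, all 8 being tested. Counts summed per culture gave 1 that rose and 0 that fell. *Kat7*, the histone acetyltransferase HBO1 that works with CDT1 at origins, was at 76.1 to 91.5 CPM (median 85.9) in CRE and at 50.9 to 75.6 CPM (median 64.2) in RFP libraries. All 10 CRE libraries were above every RFP library, with a log2 fold change of 0.41 (SE 0.077, adjusted p = 9.9e-05). *Orc6* had one of 0.50 (SE 0.18, adjusted p = 0.033), while the log2 fold changes of *Orc2*, *Orc3*, *Orc4* and *Orc5* lay between -0.14 and 0.14 with adjusted p of 0.51 and above.

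Of 14 genes for origin firing, 2 fell and 1 rose. *Cdc7*, the kinase that acts on the loaded MCM ring, had a log2 fold change of -0.57 (SE 0.19, adjusted p = 0.016), and *Ticrr*, which encodes the CDK target treslin, one of -1.11 (SE 0.43, adjusted p = 0.039). *Recql4*, a helicase of the firing step, was at 7.14 to 20.8 CPM (median 9.83) in CRE and at 2.61 to 5.99 CPM (median 3.75) in RFP libraries. All 10 CRE libraries lay above every RFP library, with a log2 fold change of 1.52 (SE 0.21, adjusted p = 1.6e-06). The number that fell varied with the setting, from 0 with library totals, with sums per culture and without culture 1 or 2 to 6 with the GC trend removed and culture as a block, and the median over the 14 genes was -0.40.

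The fork and nucleotide supply genes, 26 of 27 tested, held 9 that fell and 2 that rose. *Rfc4*, a subunit of the clamp loader, had a log2 fold change of -1.49 (SE 0.34, adjusted p = 0.00076), *Uhrf1*, which maintains DNA methylation behind the fork, of -1.17 (SE 0.31, adjusted p = 0.0032), and *Rrm2*, of the ribonucleotide reductase, of -0.79 (SE 0.16, adjusted p = 0.00019). The median over the list was -0.22. Without culture 2, 2 genes of the list fell and 0 rose by the same test. Counts summed per culture gave 8 that fell and 1 that rose.

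The E2F and RB families, with the dimer partners of E2F proteins, were described by 13 genes, of which 5 rose and 4 fell. *E2f8*, a repressor of the E2F family, had a log2 fold change of -1.43 (SE 0.33, adjusted p = 0.0011) and *Tfdp1*, a dimer partner of E2F proteins, of -0.50 (SE 0.10, adjusted p = 0.00020). *Tfdp2*, the other partner, rose with 0.85 (SE 0.12, adjusted p = 8.5e-07), and *E2f6*, also a repressor, with 0.58 (SE 0.11, adjusted p = 0.00011). *E2f1* had one of 0.15 (interval -0.23 to 0.52, adjusted p = 0.57). The direction thus differed within the family and between the partners, and without culture 1 the list held 4 genes that rose and 2 that fell. Counts summed per culture gave 3 that rose and 3 that fell.

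**Figure D4:**
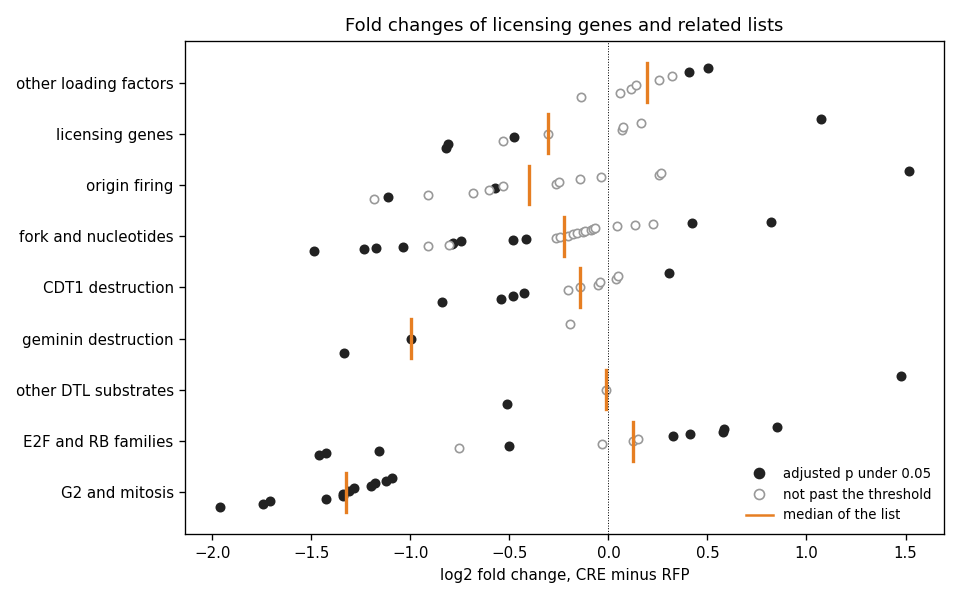
Log2 fold change of CRE minus RFP (horizontal axis) of each tested gene in the licensing genes and 8 related lists, filled where the adjusted p was under 0.05, with the median of each list as a vertical bar. All 12 genes of G2 and mitosis lie between -1.96 and -1.09, whereas the licensing genes spread from -0.82 to 1.07.

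The 12 genes of G2 and mitosis all fell, with a median log2 fold change of -1.32 against -0.30 over the 9 licensing genes. *Mki67*, the proliferation antigen, was at 5.25 to 60.1 CPM (median 18.9) in CRE and at 41.7 to 117 CPM (median 88.8) in RFP libraries. In 8 CRE libraries it was below every RFP library, with a log2 fold change of -1.71 (SE 0.33, adjusted p = 0.00039). *Ccna2*, which encodes cyclin A, had one of -1.74 (SE 0.28, adjusted p = 1.5e-05), *Cdk1* of -1.34 (SE 0.30, adjusted p = 0.00084) and *Bub1*, of the spindle checkpoint, of -1.96 (SE 0.44, adjusted p = 0.00071). Without culture 2, 6 of the 12 fell, and with counts summed per culture 8 of the 12 did. The difference in size between these genes and the licensing genes was not tested. Of the genes called in the lists and markers, 20 were over the filter's cutoff in under 10 libraries of 1 group, and 19 of these, all but *Gmnn*, were also called without the filter. The 19 include *Ticrr*, *Fbxo5*, *Rfc4*, *Uhrf1*, *E2f8* and *Bub1*. Each of those named was over the cutoff in 11 RFP libraries but in only 6 to 9 CRE libraries.

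Markers of cell types did not all go the same way. All 5 markers of oligodendrocyte precursors, which divide in such cultures, fell, their summed level being 349 to 945 CPM in CRE and 544 to 1704 CPM in RFP libraries, and *Pdgfra* was at 2.40 to 173 CPM (median 9.35) in CRE and 40.5 to 323 CPM (median 280) in RFP libraries. Of 8 astrocyte markers 4 fell and 1 rose (summed 1554 to 5110 CPM in CRE and 3028 to 7820 CPM in RFP libraries), and of 6 neuron markers 5 fell (2719 to 4953 CPM and 4741 to 6350 CPM). Of 8 progenitor markers, 7 were tested, of which 3 rose and 2 fell. Their summed level was 1000.2 to 1874 CPM in CRE and 385 to 588 CPM in RFP libraries. *Nes* alone was at 603 to 1186 CPM in CRE and 94.5 to 146 CPM in RFP libraries. Of 5 oligodendrocyte markers 4 were tested and 1 fell (57.1 to 88.6 CPM and 36.8 to 229 CPM). Of 10 endothelial and mesenchymal markers 6 were tested and 1 rose (14.0 to 383 CPM and 17.9 to 136 CPM). Of 6 microglia markers 2 were tested and 1 rose, at a summed level of at most 7.67 CPM. That marker, *Tmem119*, was over the filter's cutoff in 9 CRE libraries but in only 1 RFP library. No marker of these lists was at 0 in all 21 libraries. In bulk RNA, fewer cells of a type and less RNA per cell cannot be told apart, and the part of cell composition in the differences of the licensing genes was not tested.

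Over the 21 libraries with group means removed, the 15 pairs of helicase subunits had Spearman rho from -0.12 to 0.74, with a median of 0.42. *Mcm2* and *Mcm7* had 0.74 and *Mcm2* and *Mcm5* 0.60, whereas *Mcm6* had between -0.12 and 0.25 with the other subunits. *Mcm2* and *Mcm3* each had 0.71 with *Mki67*, and *Mcm4* had 0.79 with *Dtl*. Libraries with more of most subunits were thus also those with more of the mitotic marker. That marker was not alone in this. *Gfap* had 0.68 with *Mcm3* but 0.24 with *Mcm2*, and *Mki67* itself had 0.64 with *Gfap* and 0.51 with *Map2*. *Cdt1* and *Gmnn* had -0.35, *Cdt1* and *Mcm2* 0.55, and *Gmnn* and *Cdc6* 0.57. These values are descriptions, since the libraries share culture, depth and composition.

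**Figure D5:**
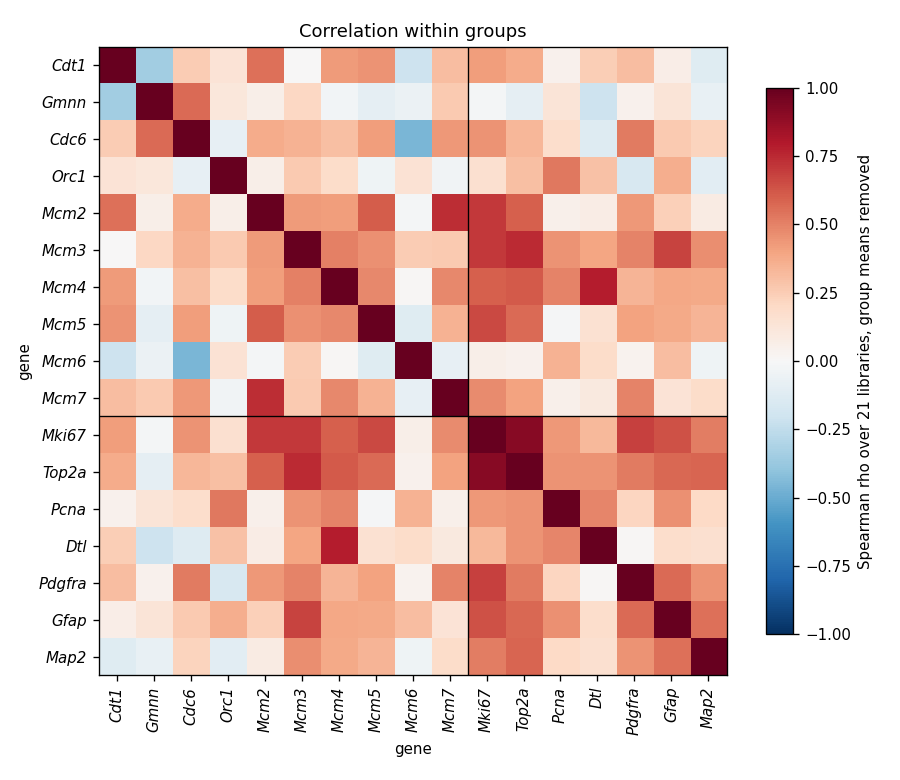
Spearman rho (colour, -1 to 1) between the 10 licensing genes and 7 other genes over the 21 libraries after removal of group means, with lines that separate the licensing genes from the others. Most pairs among *Mcm2*, *Mcm3*, *Mcm4*, *Mcm5* and *Mcm7* and with *Mki67* are red, up to 0.74 among subunits, while *Mcm6* is pale with each other subunit (-0.12 to 0.25).

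The 5 other genes most alike the mean of *Mcm2* to *Mcm7* in this measure were *Ncapd2* (rho 0.81), a condensin subunit, *Lima1* (0.81), *Ccdc28b* (0.81), *Eda* (0.80) and *Mki67* (0.79). Of these, *Ccdc28b* (log2 fold change -0.59, adjusted p = 0.011) and *Mki67* fell. *Ncapd2* (-0.28, adjusted p = 0.15), *Lima1* (-0.42, adjusted p = 0.23) and *Eda* (-0.060, adjusted p = 0.86) were not called.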

How the data were processed

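RNA was measured in 23 libraries of primary hippocampal cultures. The authors prepared stranded mRNA libraries, sequenced them on a NovaSeq6000, and, per the submitters' processing notes, used bcl2fastq 2.20.0.422, STAR 2.7.8a and featureCounts 1.5.0-p1 with GRCm39. The deposited values are whole-number counts per gene, without normalization. The strand setting and the handling of reads with several positions are not given in the sources used here. Groups came from the labels. The comparison leaves out CRE 1-3 and CRE 3-3, as Methods state, while the supplementary count table of the study leaves out CRE 3-3 and RFP 3-2, which is an alternative.

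Counts were fitted in R 4.3.3 with edgeR 4.0.16 (filterByExpr with a minimum count of 10, TMM, robust quasi-likelihood, Benjamini-Hochberg over all genes tested), and DESeq2 1.42.0 was an alternative. CPM used TMM factors over all 23 libraries, log2 CPM a prior count of 2, and lengths the union of annotated exons in GENCODE M39, which named 56323 of 56941 genes. Python 3.11.15 with pandas 2.3.3 gave summaries. No pair of libraries of a group agreed within sampling noise (smallest chi-square per degree of freedom 10.9). The fit was tested on simulated data.

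The licensing genes and all lists were chosen with earlier results of these data known. The rule for named genes takes *Nedd8*, the 10 licensing genes, up to 4 called genes of smallest p in each related list and the 5 genes most alike the mean of *Mcm2* to *Mcm7*. Values of 1 gene under this rule are not reported here. Genes outside it (*Pcna*, the cullins, *Skp2*, *Fzr1*, *Kmt5a*, *Orc2* to *Orc5*, *E2f1*, the markers, *Gmnc*, *Mcidas*, *Mcm8* and *Mcm9*) were named after their values were seen. The 37 alternatives cover libraries, tool, scaling, filter, GC content, blocks and libraries or cultures left out.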

Additional observations from a re-analysis of the deposited data

Results flagged for a closer look

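A library far from the other 9 of the CRE group, by Dixon's test at the 95% level, was found for 3 of the 10 licensing genes. *Cdt1* in CRE 3-2 was at 14.2 CPM, *Mcm6* in CRE 1-2 at 33.6 CPM and *Orc1* in CRE 3-1 at 2.57 CPM. Chance gives about 1 in 20 groups, and 10 groups were tested. The critical value used was that for 10 libraries, so the 11 RFP libraries were not examined for such outliers. Without CRE 3-2 the log2 fold change of *Cdt1* was 0.033 (adjusted p = 0.92), and without CRE 1-2 that of *Mcm6* was -0.13 (adjusted p = 0.57).

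In the libraries outside the comparison, *Cdt1* was above the highest RFP library, at 32.9 CPM in CRE 1-3 and at 29.2 CPM in CRE 3-3, and *Mcm7* was above it in CRE 1-3, at 41.8 CPM. These libraries hold 0 counts of *Gmnn* and of *Orc1* and at most 1 count of *Cdc6*, and CRE 3-3 rests on 1546796 counts in all.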

How the results depend on the processing

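The number of licensing genes called, 4 by the main test, was 2 with library totals alone, 2 without culture 1, 1 without culture 2, 1 with counts summed per culture, and 2 to 4 with 1 library left out at a time; *Mcm4* and *Mcm5* were the genes that dropped out besides *Gmnn*. The cause was not tested, except that sums per culture and left-out cultures rest on fewer units. The log2 fold change of *Cdt1* reversed to -0.27 without culture 3 and ran from 0.033 to 0.24 with 1 library left out. Values near 0 also reversed without a call, *Mcm6* to -0.0078 with all 23 libraries, -0.052 with those of the supplementary count table, -0.038 without the 4 libraries that stand apart and -0.047 without culture 1, and -0.13 to 0.13 with 1 library left out, and *Mcm7* to -0.16 without culture 3 and -0.0011 to 0.12 with 1 library left out. The count over all genes, 5492, lay between 3727 and 8044 under all alternatives.

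Whether same culture numbers mark paired samples was not settled. Deviations of same-numbered cultures correlated with 0.12, 0.18 and 0.078 across genes, against -0.14 to 0.016 for different numbers. Each culture thus correlated best with its own number, though weakly. With the replicate block of culture number 3 licensing genes were called, *Gmnn* having an adjusted p of 0.051, with that of library number 4, and with culture and library number together 2. The longest transcript as length rescales a gene's level per kb by the same factor in both groups. Levels moved by more than the SD of the libraries for *Mcm2* (2.74 in CRE and 4.79 in RFP libraries) and *Mcm7* (9.22 and 8.76), and past the SD of the RFP but not of the CRE libraries for *Mcm5* (2.46) and *Mcm6* (3.40). With the shorter promoter window, 4 genes held the E2F motif instead of 7. Depth limits *Gmnn*, *Cdc6* and *Orc1*, with 0 to 66 counts per library.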

Other observations

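The relatives of geminin that act in multiciliated cells were too low to be tested. *Gmnc* was at 0 to 1.02 CPM in CRE and 0 to 1.34 CPM in RFP libraries, and *Mcidas* at 0 to 0.715 CPM in CRE and 0.511 to 2.49 CPM in RFP libraries, where 9 of 10 CRE libraries were below every RFP library. *Ccno*, a gene of the same program, was at 0 to 2.15 CPM in CRE and 2.12 to 8.05 CPM in RFP libraries with a log2 fold change of -2.51 (SE 0.48, adjusted p = 0.00013). It was over the filter's cutoff in 4 CRE and 11 RFP libraries, and without the filter its adjusted p was 1.1e-05. The summed level of the 4 multiciliated markers was 8.56 to 26.9 CPM in CRE and 13.5 to 44.9 CPM in RFP libraries, 1 of 2 tested being called. Of the relatives of the MCM subunits, *Mcm8* had a log2 fold change of -0.45 (interval -1.12 to 0.21, adjusted p = 0.29) and *Mcm9* of 0.13 (interval -0.17 to 0.43, adjusted p = 0.52), and neither was called.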
